A study of Mus musculus with 6 samples.

Results

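The genes described here are oncostatin M (Osm), interleukin-6 (Il6) and leukemia inhibitory factor (Lif), with the receptor chains Il6ra, Il6st, Osmr and Lifr. They were taken by symbol from the deposited count table, which held all 7 of them among 24421 gene entries. The table came from monocytes sorted from the bone marrow of B6 mice, and the labels name no allele or transgene and no age. One group of 3 libraries came from cells exposed to 5 ng granulocyte-macrophage colony-stimulating factor (GM-CSF; the volume is not stated) for 3 h, and the other group of 3 from control cells. The labels describe the control cells both as freshly isolated and as part of an incubation of 3 h in medium without the cytokine. If they were not incubated, GM-CSF and time in culture cannot be told apart. The labels do not say whether replicates are separate animals or cultures. The p-values therefore measure only the spread between these libraries, which may be technical.

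These cytokines signal through gp130, the shared chain encoded by Il6st. IL-6 first binds its own receptor, encoded by Il6ra, whereas oncostatin M and leukemia inhibitory factor bring gp130 together with the chains encoded by Osmr and Lifr. The receptor complexes activate Janus kinases and, mainly, STAT3, and the SOCS3 protein shuts them down by binding gp130. Myeloid cells are a known source of oncostatin M, which acts on stromal, endothelial and epithelial cells, and Osm is known as a gene that STAT5, the main STAT of the GM-CSF receptor, turns on.

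Reads assigned to genes numbered 16643228 to 25232956 per library. Values are gene counts scaled to a common library total (CPM), and differences are log2 fold changes of GM-CSF against control with SE, tested by edgeR's quasi-likelihood F test with p-values adjusted by the Benjamini-Hochberg method over 11731 genes at a threshold of 0.05. Of all genes tested, 64.0% passed that threshold, 32.8% higher and 31.2% lower, and in 69.5% the groups did not overlap. All GM-CSF libraries lay above all controls in 34.9% and below in 34.7%, and 11.9% rose and 12.6% fell by a log2 fold change of at least 1. A call alone is therefore common in this comparison, and the sizes below carry more of the description. GM-CSF replicate 3 correlated less with the other GM-CSF libraries (Pearson r of log2 CPM across genes 0.980 and 0.983) than these did with each other (0.990). The monocyte genes Csf1r and Itgam were at 1450 ± 132 and 882 ± 55.1 CPM in control and at 1642 ± 39.6 and 794 ± 55.7 CPM in GM-CSF libraries (SD, n = 3 per group). Defining genes of the labelled cell type were thus present, although Ccr2 went from 1877 ± 129.9 to 521 ± 29.1 CPM and Cx3cr1 from 481 ± 48.8 to 42.7 ± 4.22 CPM. The granule gene Mpo, typical of immature myeloid cells, was at 4164 ± 740.5 and 4677 ± 660.2 CPM.

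Of the 7 genes, 6 passed the filter on low counts and were tested. Il6 and Lif passed it through the GM-CSF libraries alone, where they are higher, and Osmr did not pass. In such bulk samples, fewer cells of a type and less RNA per cell cannot be told apart. In the plot of CPM by library, the 3 cytokine genes lie higher in every GM-CSF library, while Il6ra and Lifr lie lower and Il6st shifts little. Among all genes tested, every GM-CSF library lay above every control in 34.9% and below in 34.7%.

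**Figure D1:**
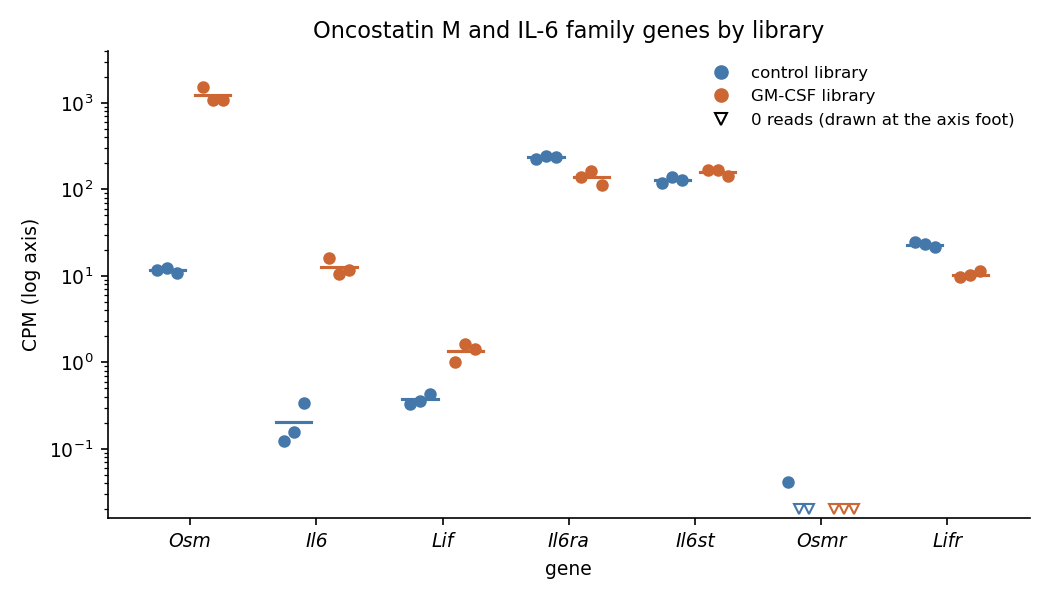
CPM of each gene in each library on a log axis, with 3 control (blue) and 3 GM-CSF (orange) libraries per gene and a bar at each group mean; open triangles are libraries with 0 reads. Osm moves from 10.9 to 12.3 CPM in control to 1082 to 1523 CPM in GM-CSF libraries, while Osmr has 1 read in all.

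Oncostatin M was the most abundant of these transcripts after GM-CSF. Osm had 279, 311 and 227 reads in control replicates 1, 2 and 3 and 25557, 18002 and 23414 reads in GM-CSF replicates 1, 2 and 3. On the CPM scale this is 11.6, 12.3 and 10.9 in control and 1523, 1082 and 1091 in GM-CSF libraries. The groups were far apart, and within the GM-CSF group replicate 1 was the highest while the other 2 were almost equal. The mean went from 11.6 ± 0.701 to 1232 ± 252 CPM, a 106-fold rise (log2 fold change 6.73 ± 0.17, edgeR adjusted p = 2.26e-10). Among tested genes this was the rise of rank 60. Per kb of exon, Osm moved from rank 6119 to rank 55 among 11636 tested genes with an annotated length.

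Il6, which encodes a cytokine of fever and the acute phase response, rose from near silence to a low level. It had 3, 4 and 7 reads in the control libraries and 270, 176 and 254 in the GM-CSF libraries, which is 0.125, 0.159 and 0.337 CPM against 16.1, 10.6 and 11.8 CPM. No control library came close to a GM-CSF library. The mean went from 0.207 ± 0.114 to 12.8 ± 2.89 CPM, a 62.1-fold rise (log2 fold change 5.96 ± 0.33, edgeR adjusted p = 7.30e-08). With 14 control reads in all, the fold is less certain than that of Osm, and without single libraries the log2 value ran from 5.72 to 6.43. Per kb of exon, Il6 stood at rank 6116 after GM-CSF, about where Osm stood in control.

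Lif, the cytokine that keeps mouse embryonic stem cells undifferentiated, rose least of the 3. Its reads were 8, 9 and 9 in control and 17, 27 and 31 in GM-CSF libraries, or 0.333, 0.357 and 0.433 CPM against 1.01, 1.62 and 1.44 CPM. All GM-CSF libraries lay above all control libraries, but every value was low. The mean went from 0.374 ± 0.0521 to 1.36 ± 0.313 CPM (3.63-fold; log2 fold change 1.86 ± 0.40, edgeR adjusted p = 0.00183). The Lif level per kb was 0.0169 ± 0.00327 of that of Osm in control and 0.000607 ± 0.000230 of it in GM-CSF libraries, so both genes rose but by very different factors.

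The genome places Osm and Lif side by side on chromosome 11 (GRCm38, GENCODE M21 annotation). Osm spans 4236420 to 4241026 and Lif 4257557 to 4272514, both protein-coding and on the plus strand, with 16.5 kb between them. Of the other genes that start within 200 kb of either, 6 were tested, of which 3 rose and 0 fell by edgeR (also 0 at an unadjusted p under 0.05, by DESeq2 and by limma-voom). Over all genes tested, 32.8% rose and 31.2% fell. Gatsl3 starts at -18.2 kb from the start of Osm and rose (2.78 ± 0.370 to 8.90 ± 1.26 CPM; log2 fold change 1.68 ± 0.20, edgeR adjusted p = 2.42e-05). Tbc1d10a, a Rab GTPase-activating protein gene at -49.6 kb, rose too (23.3 ± 2.27 to 57.3 ± 7.43 CPM; 1.31 ± 0.12). The splicing factor gene Sf3a1 rose by 0.54 ± 0.09 on the log2 scale, while Ccdc157 (0.60), Mtfp1 (0.34) and Rnf215 (-0.11) did not pass. The rise of Osm was therefore far larger than that of any tested gene around it.

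**Figure D2:**
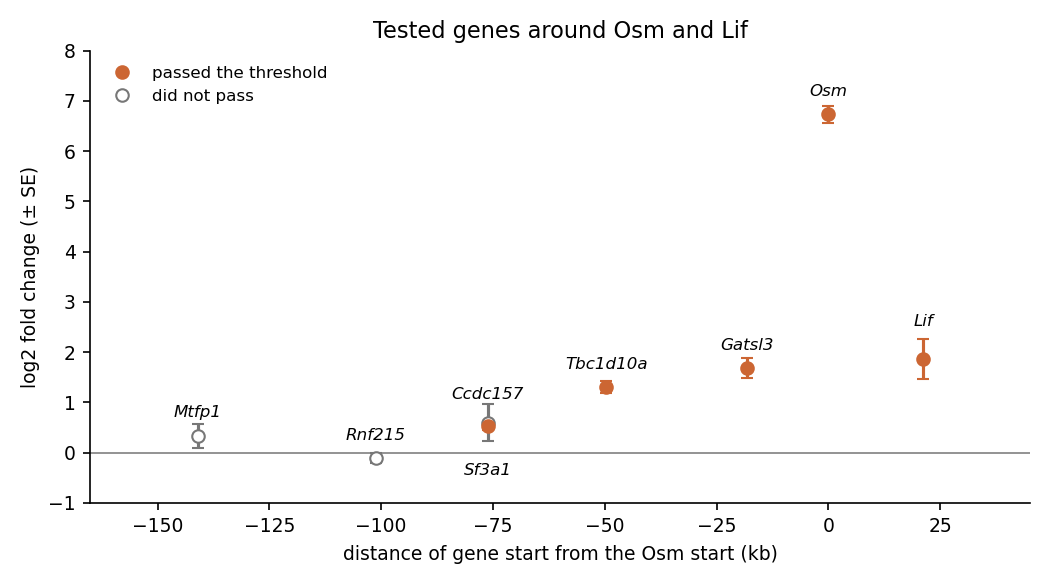
Log2 fold change (± SE, edgeR) of each tested gene against the distance of its start from the start of Osm in kb; filled orange points passed the threshold. Osm stands at 6.73, its neighbours Lif and Gatsl3 at 1.86 and 1.68, and the genes farther away nearer to 0.

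Il6 lies on chromosome 5 (30013114 to 30019981, plus strand). Of 3 tested genes that start within 200 kb, Tyms, the thymidylate synthase gene, rose by 0.32 ± 0.08 and Hadhb, a mitochondrial fatty acid oxidation gene, by 0.71 ± 0.11 on the log2 scale. Hadha was at 0.22 and did not pass. Beside these calls stand 32.8% higher and 31.2% lower over all genes tested. The Tyms call ended with upper quartile scaling (0.20).

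Promoter sequences of RefSeq (GRCm38.p6) were matched for 6 of the 7 genes, without Osm. The 250 bases before the start are shown for the 2 cytokine genes found and for Il6st, as the gene whose level shifted least, so that they can be set side by side. Capitals mark matches, on either strand, to the motifs searched: TTCNNNGAA (STAT), TGANTCA (AP-1), TGACGTCA (CRE), TTGCNNAA (C/EBP) and the NF-kB consensus. No match overlaps another.
Il6 (chr5:30012864-30013113, plus strand): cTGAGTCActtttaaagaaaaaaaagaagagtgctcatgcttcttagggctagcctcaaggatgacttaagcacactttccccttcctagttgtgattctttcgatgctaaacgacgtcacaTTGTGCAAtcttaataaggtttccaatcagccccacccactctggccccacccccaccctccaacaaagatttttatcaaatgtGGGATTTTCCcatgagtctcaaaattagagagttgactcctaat
Lif (chr11:4257318-4257567, plus strand): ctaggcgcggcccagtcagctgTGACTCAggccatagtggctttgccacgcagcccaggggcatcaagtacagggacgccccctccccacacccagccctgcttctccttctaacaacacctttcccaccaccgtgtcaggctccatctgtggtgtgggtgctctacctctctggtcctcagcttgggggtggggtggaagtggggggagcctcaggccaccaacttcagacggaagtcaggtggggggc
Il6st (chr13:112463820-112464069, plus strand): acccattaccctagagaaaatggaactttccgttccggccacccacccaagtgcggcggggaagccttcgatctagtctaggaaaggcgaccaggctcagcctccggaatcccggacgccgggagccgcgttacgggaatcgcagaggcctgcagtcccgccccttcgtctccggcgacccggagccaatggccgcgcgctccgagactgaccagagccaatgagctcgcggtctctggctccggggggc
The Il6 window holds an AP-1 match at position -249, a C/EBP match at -128 and an NF-kB match at -44, counted from the start. Lif holds an AP-1 match at -228. Il6st holds none of the 5 motifs, nor do Il6ra and Lifr, and Osmr has an AP-1 match at position 4 after its start. Among 32851 promoter windows of 300 bases, 7.81% hold the AP-1 motif, 10.8% the C/EBP motif and 4.51% the NF-kB consensus. The STAT motif, which 8.30% hold, was found in none of the 6 genes, and the CRE motif, in 1.79%, likewise. These are matches of letters only.

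Short-lived cytokine transcripts often carry ATTTA repeats in the 3' untranslated region, which bind decay factors such as the product of Zfp36. The count was taken in 1 coding transcript per gene of GENCODE M21. Il6 held 6 ATTTA in 427 bases, a density of 14.1 per kb that lies above that of 99.8% of 10383 tested genes, whose median was 1.35 per kb. Osm held 6 in 1017 bases (5.90 per kb, above 95.7% of genes) and Lif 7 in 3180 bases (2.20 per kb, above 67.6%). The receptor chains had 0.544 per kb in Il6ra, 1.60 in Il6st, 1.74 in Lifr and 2.23 in Osmr. The stretch of 30 bases with most ATTTA, in capitals, shows how they are packed in each cytokine transcript.
Osm: aatccgttttatATTTAtaaggcctATTTA
Il6: tttaattatttttaATTTAttgataATTTA
Lif: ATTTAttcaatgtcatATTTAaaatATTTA
Lif has 3 in its stretch, which 2.21% of genes reach, and the other two have 2, which 19.0% reach.

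On the receptor side, the IL-6 binding chain fell while the shared chain rose slightly. Il6ra stood at 222, 245 and 235 CPM in control and at 140, 164 and 111 CPM in GM-CSF libraries, in replicate order. Every GM-CSF library lay below every control library, with replicate 3 the lowest. The mean went from 234 ± 11.6 to 138 ± 26.4 CPM, 1.69-fold lower (log2 fold change -0.75 ± 0.12, edgeR adjusted p = 0.000193; -0.61 without GM-CSF replicate 3). Il6ra lies on chromosome 3 at 89864059 to 89913196 on the minus strand. Reads per gene do not tell the membrane form of a receptor from a soluble one.

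Il6st, the gp130 gene, was at 117, 140 and 129 CPM in control and at 169, 167 and 141 CPM in GM-CSF libraries. The groups did not overlap, but control replicate 2 and GM-CSF replicate 3 lay close together. The mean went from 128 ± 11.4 to 159 ± 15.5 CPM (1.24-fold; log2 fold change 0.31 ± 0.09, edgeR adjusted p = 0.0119). This call was the least firm of the 6. It ended without control replicate 1 (0.26, adjusted p = 0.0570) and with upper quartile scaling (0.20, adjusted p = 0.0874), a scaling that moved the median of all genes by -0.12; relative to that median Il6st was at 0.31 under both scalings.

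The ratio of both IL-6 receptor chains was lower in every GM-CSF library than in every control library. Per kb of exon, the Il6ra to Il6st ratio was 2.44, 2.25 and 2.35 in control and 1.07, 1.26 and 1.01 in GM-CSF libraries. The ratios of the groups were well separated, at 2.35 ± 0.0927 against 1.11 ± 0.131 (log2 difference -1.08). The exact two-sided permutation test gave p = 0.1, the smallest that 3 against 3 libraries allow. In GM-CSF libraries the levels per kb of Il6ra (16.0 ± 3.06) and Il6st (14.3 ± 1.40) overlapped across libraries. Within each of these libraries the Il6ra level per kb was the higher, by a ratio of 1.01 to 1.26. That order rests on the annotated exon lengths. In CPM, Il6ra was the lower in each, at 140, 164 and 111 against 169, 167 and 141 for Il6st. In control the Il6ra level per kb lay further above that of Il6st (27.1 ± 1.34 against 11.6 ± 1.03).

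**Figure D3:**
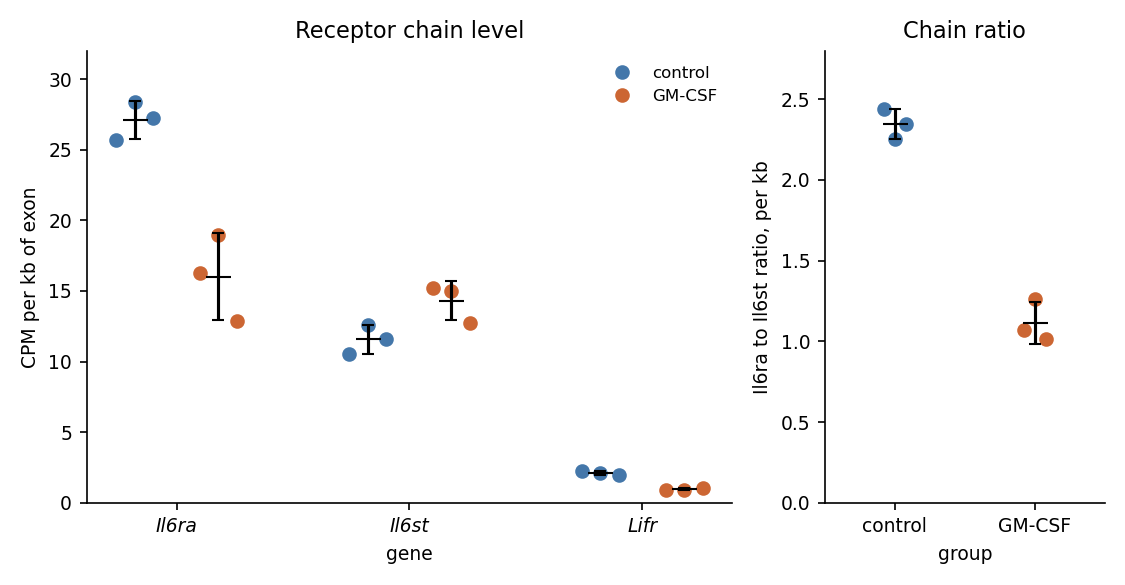
Left, CPM per kb of exon of the receptor chain genes Il6ra, Il6st and Lifr in each library; right, the Il6ra to Il6st ratio per library, with mean and SD in black. The ratio is 2.25 to 2.44 in control and 1.01 to 1.26 in GM-CSF libraries.

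Lifr, the chain for leukemia inhibitory factor, fell from a low level. It was at 24.5, 23.1 and 21.5 CPM in control and at 9.65, 10.2 and 11.3 CPM in GM-CSF libraries, with narrow groups that did not overlap. The mean went from 23.0 ± 1.54 to 10.4 ± 0.854 CPM, 2.22-fold lower (log2 fold change -1.14 ± 0.13, edgeR adjusted p = 1.56e-05). Osmr, the oncostatin M receptor chain, had 1 read in control replicate 1 and 0 in each of the other 5 libraries. A count of 0 allows up to 3 reads, or 0.119 to 0.180 CPM per library, so Osmr was not detectable beyond that level in either group and no fold is given. These limits cover counting error only. In the GM-CSF libraries the gene for the cytokine was thus abundant, while the gene for its specific receptor chain had 0 reads.

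Both chains lie on chromosome 15, Osmr at 6813577 to 6874969 on the minus strand and Lifr at 7090614 to 7197489 on the plus strand, 216 kb apart. Rictor, which encodes a subunit of mTOR complex 2, was the sole tested gene that starts within 200 kb of either, and rose by 0.56 ± 0.10 on the log2 scale. Around Il6st on chromosome 13 (112464070 to 112510086, plus strand), 3 genes were tested. Il31ra, another receptor chain of the family, starts 130 kb away and rose by 2.97 ± 0.23, Ankrd55 rose by 5.16 ± 0.49 from a control mean of 0.154 CPM (6.36 without control replicate 1) and passed the filter through the GM-CSF libraries alone, and the amino acid transporter gene Slc38a9 fell (-0.53 ± 0.12). Around Il6ra, 5 of 11 tested genes rose, 1 fell and 5 did not pass, beside 32.8% higher and 31.2% lower over all genes tested. Those that rose were Atp8b2, a lipid flippase gene (1.79), Ubap2l (0.85), the tropomyosin gene Tpm3 (0.35), 4933434E20Rik (0.32) and Hax1 (0.31), and Adar, which encodes an RNA-editing enzyme, fell (-0.86). The calls of 4933434E20Rik and Hax1 ended with upper quartile scaling (0.20 and 0.19).

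In control, the order of levels per kb was Il6ra (27.1 CPM per kb), Il6st (11.6), Osm (5.12 ± 0.309), Lifr (2.14 ± 0.143), then Lif (0.0861 ± 0.0120) and Il6 (0.0852 ± 0.0469), which did not differ beyond their spread, and last Osmr. In GM-CSF libraries it was Osm (542 ± 111), Il6ra and Il6st as given, Il6 (5.29 ± 1.19), Lifr (0.963 ± 0.0793), Lif (0.313 ± 0.0720) and Osmr.

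The rest of the gp130 family was mostly silent or low. Of 9 other cytokine genes, 3 were tested. Clcf1, whose product acts on the ciliary neurotrophic factor receptor, rose from 0.517 ± 0.201 to 3.17 ± 0.560 CPM (log2 fold change 2.58 ± 0.37, edgeR adjusted p = 9.51e-05). The IL-27 subunit genes both fell, Ebi3 from 37.4 ± 0.851 to 17.4 ± 2.08 CPM (-1.10 ± 0.11) and Il27 from 4.02 ± 0.881 to 1.90 ± 0.141 CPM (-1.07 ± 0.26). Neither group of libraries overlapped the other for these 3 genes. Among all genes tested, 69.5% did not overlap, 32.8% rose and 31.2% fell. Clcf1, like Il6 and Lif, passed the filter on low counts through the GM-CSF libraries alone. Il11, Cntf and Ctf1 had too few reads to test, and Ctf2 and Il31 had 0 reads.

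Of 5 other receptor chain genes, Il31ra rose from 1.73 ± 0.336 to 13.5 ± 2.97 CPM (edgeR adjusted p = 9.36e-07). Its libraries were at 1.88, 1.35 and 1.97 CPM in control and at 16.6, 13.2 and 10.7 CPM after GM-CSF. Il11ra1 (18.1 ± 3.07 and 20.5 ± 2.06 CPM) and Il27ra (1.60 ± 0.315 and 1.84 ± 0.548 CPM) did not pass, Il11ra2 and Cntfr had 0 reads, and none was called lower by edgeR (0 also at an unadjusted p under 0.05, by DESeq2 and by limma-voom). Shares over all genes tested were 32.8% higher and 31.2% lower. Il31ra belongs to the IL-31 receptor together with Osmr, which was nearly without reads here.

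**Figure D4:**
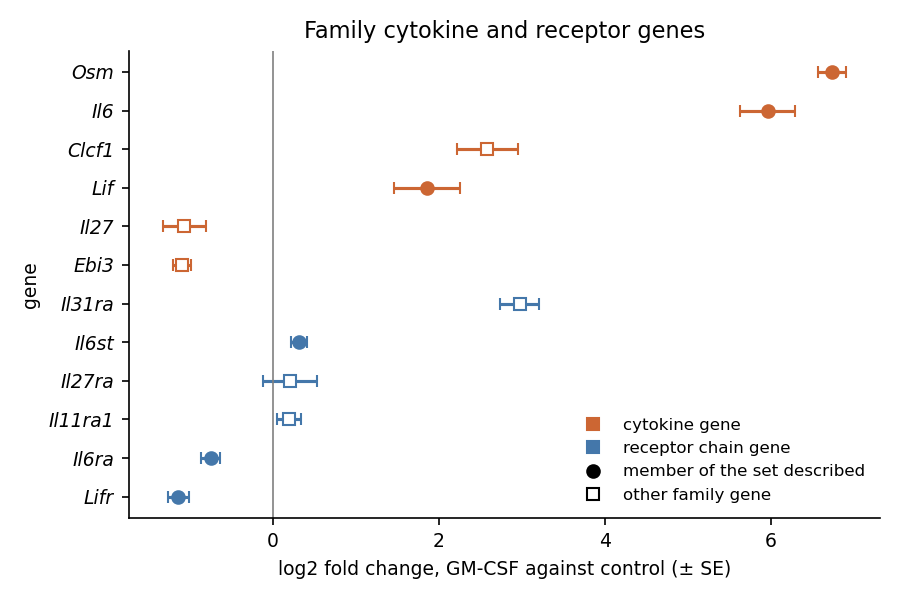
Log2 fold change (± SE, edgeR) of the tested cytokine genes (orange) and receptor chain genes (blue) of the gp130 family; filled circles are the 7 genes described, without Osmr, and open squares other family genes. Osm and Il6 stand at 6.73 and 5.96, Il27 and Ebi3 at -1.07 and -1.10, and Lifr lowest at -1.14.

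Genes that carry the signal inward went both ways, in shares near those of all genes tested (32.8% higher and 31.2% lower). Of 14 signal transducers, 5 rose, 6 fell and 3 did not pass (median log2 fold change -0.03, beside 0.01 for all genes tested). Jak2 rose most (42.1 ± 3.55 to 263 ± 43.8 CPM; 2.65 ± 0.12), followed by the RAS activator Sos1 (1.38), the adaptor Gab2 (0.83), the phosphatase Ptpn11 (0.41) and the adaptor Shc1 (0.21). Among the genes that fell were the kinase gene Tyk2 (257 ± 12.8 to 143 ± 16.5 CPM; -0.84 ± 0.09), Stat5b (-0.55), Stat5a (-0.40) and Grb2 (-0.25). Stat3, the main STAT of gp130, was at 358 ± 20.7 and 395 ± 27.6 CPM (log2 fold change 0.15, edgeR adjusted p = 0.126) and passed, of the 15 alternatives run, only without GM-CSF replicate 3 (0.21). Jak1 (-0.05) and Gab1 did not pass. The Shc1 call ended with upper quartile scaling (0.096) and with no filter (0.20), and the Shc1 and Grb2 calls each ended without any of several single libraries.

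Most feedback genes rose. Of 9, 7 rose, 1 fell and 1 did not pass (median 1.76), beside 32.8% higher and 31.2% lower over all genes tested. Socs2 passed the filter through the GM-CSF libraries alone; without it 6 of 8 rose and the median was 1.67. Socs3, the inhibitor that binds gp130, went from 10.2 ± 3.25 to 1559 ± 173 CPM (log2 fold change 7.27 ± 0.20). Cish reached 2046 ± 250.3 CPM (10.43 ± 0.24), and Socs2 had 3 control reads and a ratio of 661 (95% counting interval 226 to 3207). Pias3, an inhibitor of STAT3, fell (24.5 ± 2.03 to 6.35 ± 0.140 CPM; -1.94 ± 0.13), and Pias1 did not pass (-0.07). Cish, Socs2 and Socs3 are also known targets of STAT5.

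Of 22 genes known to respond to STAT3, 21 were tested, 18 rose, 2 fell and 1 did not pass (median 2.17). Over all genes tested, 32.8% rose and 31.2% fell. Arg1, Timp1 and Fosl1 passed the filter on low counts only through the GM-CSF libraries, where they are high; without them 15 of 18 rose, 2 fell and the median was 1.76. Timp1, the metalloproteinase inhibitor gene that oncostatin M is known to induce, had 0 control reads and 167 GM-CSF reads, which is at least 71.0-fold higher when 3 reads are assumed for the summed control. Socs3 as above and Ier3 (10.6 ± 2.97 to 1006 ± 107 CPM; 6.58 ± 0.20) also had large rises, and Il4ra, the IL-4 receptor chain, rose from 117 ± 7.48 to 547 ± 57.1 CPM (2.23 ± 0.10). The genes that fell were Lcn2 (972 ± 185 to 251 ± 42.8 CPM) and Cebpd (183 ± 7.85 to 79.6 ± 8.02 CPM). Lcn2 is also a neutrophil granule gene. Of 13 neutrophil markers tested, Lcn2 included, 8 fell and 1 rose, beside 31.2% lower and 32.8% higher over all genes tested. Camp (3137 ± 676.3 to 1157 ± 165.5 CPM), Ngp (5282 ± 952 to 2203 ± 272.3 CPM) and S100a8 (8137 ± 1537.2 to 3584 ± 471 CPM) fell. Ctsg rose (261 ± 39.0 to 322 ± 18.7 CPM), while Elane (2312 ± 411 and 2460 ± 294 CPM), Prtn3 (695 ± 109 and 690 ± 75.8 CPM) and Mpo were among those that did not pass. The part of neutrophil cells in the fall of Lcn2 was not tested. Saa3, an acute phase gene, was at 1.52 ± 0.549 and 1.25 ± 0.629 CPM and did not pass. Il10 had 0 control reads and 11 GM-CSF reads and was not tested. Many of these genes answer other signals too.

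Genes that shed receptors or process cytokines were mixed. Of 5 tested, Furin (30.6 ± 3.80 to 108 ± 68.0 CPM), Adam10 (161 ± 8.85 to 248 ± 26.0 CPM) and Rhbdf2 (82.5 ± 4.63 to 124 ± 10.9 CPM) rose, and Rhbdf1 fell from 1.05 ± 0.572 to 0.188 ± 0.133 CPM (-2.39 ± 0.63; -3.08 without GM-CSF replicate 3), having passed the filter through the control libraries alone. Furin stood at 64.6, 72.4 and 186 CPM in the GM-CSF libraries, and its log2 fold change was 1.82 with and 1.17 without replicate 3. Adam17, which cleaves the IL-6 receptor, was at 164 ± 7.93 and 183 ± 10.9 CPM and did not pass (0.17, adjusted p = 0.0669), other than without GM-CSF replicate 3 (0.23). The list's median was 0.60, and its 3 genes higher and 1 lower of 5 stand beside 32.8% higher and 31.2% lower over all genes tested.

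Of 8 genes listed for control of Il6 mRNA, through its decay, stability or transcription, 6 rose, 0 fell by edgeR and 2 did not pass (median 0.89). At an unadjusted p under 0.05, 1 was lower, and by DESeq2 and by limma-voom 0 were. Over all genes tested, 32.8% rose and 31.2% fell. Zfp36l1 rose from 1.57 ± 0.417 to 50.9 ± 5.36 CPM (5.04 ± 0.18), Zfp36, the decay factor tristetraprolin, from 294 ± 26.9 to 1141 ± 23.2 CPM (1.96 ± 0.08), and Zc3h12a, the RNase Regnase-1, by 1.07 ± 0.17 on the log2 scale. Rc3h2 (1.09), Rc3h1 (0.71) and Elavl1 (0.52) rose as well. Arid5a, which stabilises Il6 mRNA, stood at -0.06 and Nfkbiz, a cofactor of Il6 transcription, at -0.27 (adjusted p = 0.0510). Nfkbiz was called lower under 5 of the alternatives. Il6 thus rose together with Zfp36, Zfp36l1 and Zc3h12a, whose products are known to degrade Il6 mRNA.

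Of 9 genes for transcription factors known to act at Il6, 6 rose and 3 fell (median 0.53), beside 32.8% higher and 31.2% lower over all genes tested. The NF-kB genes Rel (14.2 ± 1.95 to 59.2 ± 4.78 CPM; 2.07 ± 0.13), Nfkb1 (1.16) and Rela (0.49) rose, and Jun rose from 143 ± 31.8 to 659 ± 68.2 CPM (2.22 ± 0.14). Cebpb rose by 3.46 ± 0.60, with 575, 925 and 3789 CPM in GM-CSF replicates 1 to 3, and by 2.23 when the last was left out. Cebpd (-1.19 ± 0.09), Fos (-1.35 ± 0.10) and Irf1 (-0.63 ± 0.10) fell. Atf3 was called (0.53) although its groups overlapped, and lost the call under 9 alternatives, DESeq2 and limma-voom included.

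**Figure D5:**
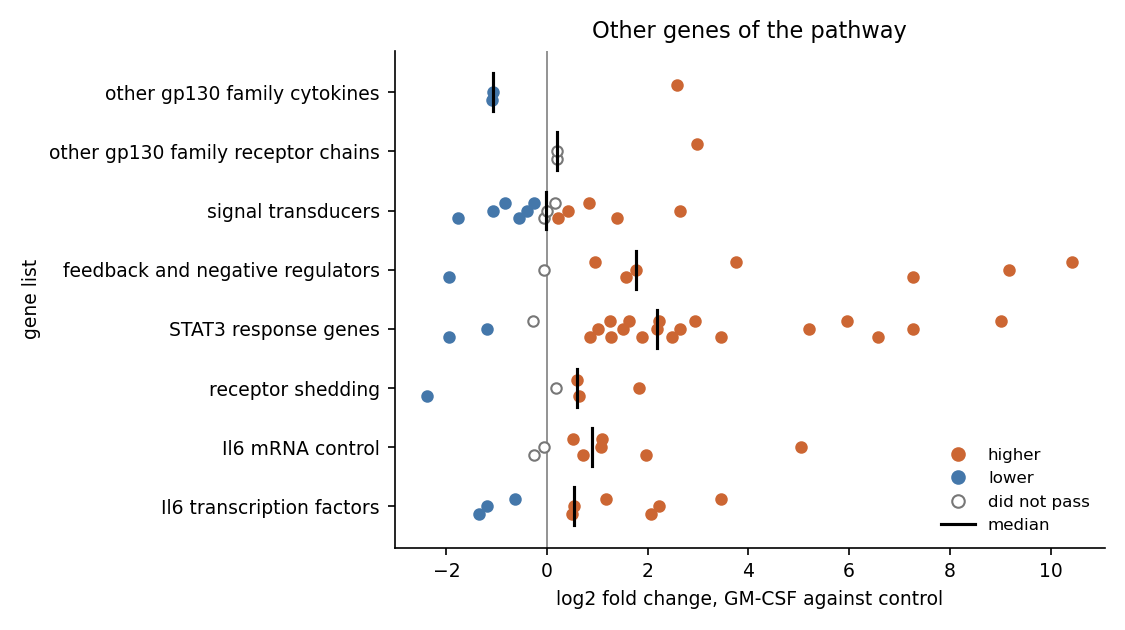
Log2 fold change (edgeR) of each tested gene of the other lists, 1 row per list, coloured by call, with a black line at the list's median. The medians run from -1.07 in the other cytokines to 2.17 in the STAT3 response genes, and the signal transducers spread on both sides of 0; the fitted positions of Timp1 and Socs2, with 0 and 3 control reads, depend on the prior count.

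Across all tested genes, the ones whose 6 library values lay nearest to a member were taken by the root mean square difference of log2 CPM, each gene centred on its own mean. For Osm these were Gpr171 (0.136), Cd83 (0.146) and Car4 (0.169); Car4 had 0 control reads and its distance depends on the prior count. For Il6 they were Hcar2 (0.262), Sdc4 (0.301) and Cdkn1a (0.308), and for Lif Serpina3g (0.103), Urb2 (0.111) and Syvn1 (0.120). For Il6ra they were Zfand1 (0.0457) and Ppip5k2 (0.0480), for Il6st Ap3b1 (0.0427), Phactr4 (0.0447) and Mtmr2 (0.0465), and for Lifr Tor4a (0.0367), Csad (0.0402) and Cebpd (0.0434).

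Markers of other cells were measured in the same libraries. The summed level of 13 neutrophil markers, led by S100a8, was 28882 to 39766 CPM in control and 16609 to 20766 CPM in GM-CSF libraries, and that of 10 monocyte markers 59672 to 68666 and 27766 to 30346 CPM. Most of the monocyte sum was Lyz2, the lysozyme gene (56025 ± 4548.3 to 21394 ± 1053.5 CPM). Of these 10 genes 6 fell and 2 rose, beside 31.2% lower and 32.8% higher over all genes tested. Those that rose were Cd14, the lipopolysaccharide co-receptor (39.7 ± 4.33 to 851 ± 244 CPM), and Adgre1, which encodes F4/80 (216 ± 24.3 to 374 ± 70.9 CPM). Csf1r and Itgam did not pass. Plasmacytoid dendritic cell markers went from 711 to 874 CPM to 316 to 324 CPM. Most of that sum was Irf8 (664 ± 85.1 to 261 ± 3.12 CPM), while Siglech was at 3.07 ± 0.532 and 0.855 ± 0.810 CPM. B and plasma cell markers, led by Cd79b, went from 75.3 to 80.8 CPM to 36.6 to 50.4 CPM. For each of these 4 lists the exact two-sided permutation p was 0.1, the smallest possible. Mast cell and basophil markers, led by Kit, overlapped between groups (21.9 to 40.9 and 29.4 to 42.1 CPM), with Mcpt4, Tpsb2 and Tpsab1 at 0 reads. Of the 5 genes of that list tested, 2 rose and 1 fell, beside 32.8% higher and 31.2% lower over all genes tested. The transcription factor gene Gata2 rose from 0.487 ± 0.266 to 10.7 ± 3.21 CPM and Ms4a2 from 0.929 ± 0.214 to 1.93 ± 0.461 CPM. Kit fell from 21.4 ± 5.13 to 14.6 ± 1.07 CPM. Gata2 passed the filter on low counts through the GM-CSF libraries alone. Mcpt8 (3.67 ± 1.19 and 2.98 ± 2.09 CPM) and Prss34 (6.28 ± 3.74 and 5.06 ± 4.05 CPM) did not pass the threshold. T and NK cell markers overlapped too (176 to 234 and 169 to 195 CPM). Nearly all of that sum was Nkg7 (194 ± 32.4 and 181 ± 13.4 CPM), and 8 of its 9 genes had a mean under 1 CPM. Erythroid and megakaryocyte markers, led by Pf4, overlapped as well (2.93 to 25.6 and 2.10 to 3.75 CPM), with 3 haemoglobin genes at 0. Control replicates 1, 2 and 3 were at 3.54, 2.93 and 25.6 CPM. Of 5 tested genes of this list 3 fell (Klf1, Itga2b and Gp9) and 0 rose, beside 31.2% lower and 32.8% higher over all genes tested. Those 3 genes passed the filter on low counts through the control libraries alone. Stromal and endothelial markers, cells in which Osmr, Lifr and Lif are commonly found, summed to 13.8 to 17.5 CPM in control and 11.5 to 13.9 CPM in GM-CSF libraries, most of it Pecam1, with Col1a2, Col3a1 and Pdgfra at 0 reads. Of 3 tested genes of this list, 1 rose and 1 fell. Pecam1 fell from 13.9 ± 1.66 to 10.4 ± 1.49 CPM. Pdgfrb rose from 0.538 ± 0.118 to 1.73 ± 0.616 CPM, having passed the filter on low counts through the GM-CSF libraries alone. Lifr, Il6ra and the neutrophil sum were all lower in GM-CSF libraries, and the part of other cells in these falls was not tested.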

How the data were processed

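Messenger RNA was measured in 6 libraries, grouped by the sample labels (3 GM-CSF, 3 control). The authors deposited unnormalized read counts, by gene symbol, with a column for each library that bears the sample's title. Per the submitters' processing notes the tools were HTSeq 0.6.1p1, STAR 2.5.2a, Trim Galore 0.4.4 and edgeR, and the build mm10, with no roles stated. The annotation and the strand setting were not given in the sources used here, so reads of overlapping or antisense genes may be mixed. Rows that name no gene held 28.8% to 30.6% of counted reads and were left out.

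The main test was that of edgeR 4.0.16 under R 4.3.3 (TMM, filterByExpr with a minimum count of 10 and total of 15, glmQLFit and glmQLFTest, group as the only term). SEs were derived from the F statistic, as the size of the log2 fold change over its root. The procedure was tested on simulated data. Limits of a 0 count use 3 reads. Exon lengths and coordinates come from GENCODE M21 (GRCm38, the assembly of mm10), matched for 23977 symbols, older ones through RefSeq synonyms.

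The genes, the 8 pathway lists, the 8 marker lists and the naming rule were chosen with earlier results of these data known. Named were all 7 genes, list genes of at least 1 CPM with the 3 largest changes or among 5 or fewer that moved one way (others were added after their values were seen), the most abundant marker per list, neighbours within 200 kb and the 3 nearest profiles. ATTTA counts were added after the data were seen. Some genes that the rule names are not reported here. Alternatives were other scalings, filters, a robust prior, a replicate block, limma-voom (limma 3.58.1), DESeq2 1.42.0 and leaving out each library.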

Additional observations from a re-analysis of the deposited data

How the results depend on the processing

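Osm, Il6, Lif, Il6ra and Lifr kept their direction and call under all 15 alternatives, with log2 fold changes of 6.54 to 6.83, 5.72 to 6.43, 1.73 to 2.02, -0.88 to -0.61 and -1.26 to -1.08. Il6st lost its call with upper quartile scaling (0.20) and without control replicate 1; without single libraries it ran from 0.26 to 0.40. Counts of genes over the whole table stayed within 1.5 times (3257 to 3971 higher, 3241 to 4318 lower), but with upper quartile scaling, which gave the lowest of the higher calls and the highest of the lower calls, 43.0% of calls were higher, against 51.3% with TMM.

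In the list for control of Il6 mRNA, 1 gene, Nfkbiz, was called lower under some alternatives (range without single libraries 0 to 1). These were DESeq2-type size factors, library size alone, upper quartile scaling, the filter of 1 CPM in 3 libraries and leaving out control replicate 2. In the shedding list 0 were lower with the 1 CPM filter, which leaves Rhbdf1 untested. The mast cell sum turned from 0.15 to -0.13 without control replicate 1 (log2 difference; range -0.13 to 0.32) and the T and NK sum from -0.09 to 0.044 without control replicate 3 (range -0.16 to 0.044).

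Genes that did not pass changed sign as follows: Gab1 with the replicate block (0.095), limma-voom (0.076), without GM-CSF replicate 2 (0.010) or 3 (0.077) and without control replicate 2 (0.51); Il27ra (-0.041), Arid5a (0.014) and Ube2q1 (-0.052) without GM-CSF replicate 2; Saa3 without GM-CSF replicate 3 (0.069) or control replicate 3 (0.021); Ube2q1 with upper quartile scaling (-0.048). Without single libraries these ran from -0.21 to 0.51 (Gab1), -0.041 to 0.39 (Il27ra), -0.11 to 0.014 (Arid5a), -0.052 to 0.25 (Ube2q1) and -0.72 to 0.069 (Saa3). The cause was not tested. Of the other values of single genes, 1320 kept direction and call, 34 lost the call and 11 gained it.

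Same-numbered libraries did not deviate together (correlations 0.073, 0.0096 and 0.0038), and not every library correlated best with its own number. With the replicate block 3848 genes were higher and 3645 lower, and the members were at 6.72 (Osm), 5.95 (Il6), 1.84 (Lif), -0.77 (Il6ra), 0.31 (Il6st) and -1.14 (Lifr), with no change of call. Depth limits Lif and Il6 in control (26 and 14 reads) and leaves Osmr untested.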
